A study of Mus musculus with 6 samples.

Results

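Interferon-stimulated genes were measured in the hippocampus of ovariectomised mice with and without a royal jelly diet. They were taken by name: Ifit1, Ifit3, Isg15, Xaf1, Usp18, Irf7, Irf9, Oasl2 and Bst2, which are 9 of the 32067 features of the deposited table. All 9 were in the table and passed the filter on low counts. The animals were female wild-type C57BL/6J mice aged 17 weeks, and both groups had had both ovaries removed at 8 weeks of age. Mice of the OVX group (n = 3) were fed a control diet. Those of the OVX+RJ group (n = 3) were given 1% royal jelly, which worker honeybees secrete, in the diet from the age of 8 weeks. Each library of poly(A) RNA is a biological replicate per the labels, which do not say whether it came from 1 mouse. A sham-operated group is not analysed here, so no level after intact ovaries stands beside these values, and the food eaten per mouse is not given in the labels.

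Interferons are secreted proteins that cells release on sensing viral or misplaced nucleic acid. The type I interferon receptor activates the kinases Jak1 and Tyk2. Their signal leads to the assembly of ISGF3, a transcription factor that contains Irf9 and binds the interferon-stimulated response element in the promoters of antiviral genes. In brain, microglia, endothelial cells, astrocytes and neurons can all carry this response, and a low level of it is present without infection.

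The promoters were searched for the element that this gene family is known for. Those of 4 genes are given here because genes that hold its letters did not share 1 pattern of values, with Xaf1 as 1 that does not hold them. The letters GAAANNGAAA were searched on both strands (TTTCNNTTTC on the other) in the 250 bases before each RefSeq gene start, on GRCm38.p6. Usp18 was the 1 gene of the 9 with no entry matched, which left 9 starts of 8 genes. The letters were found at 4 of these starts, those of Ifit1, Ifit3, Isg15 and Bst2, or 44.4%, against 2.98% of 32851 starts of all genes. Among the other interferon pathway genes listed below, the share was close to that of the 9 genes, at 40.5% of 121 starts. Below are the 170 bases before the start, 5′ to 3′ on the gene's strand, with each match in capitals; the 3 matches in Isg15 overlap one another.
Ifit1, chr19:34640719-34640888, plus strand: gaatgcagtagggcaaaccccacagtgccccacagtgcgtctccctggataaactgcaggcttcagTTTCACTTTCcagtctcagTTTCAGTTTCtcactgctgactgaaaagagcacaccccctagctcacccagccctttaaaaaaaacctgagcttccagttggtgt
Ifit3, chr19:34583359-34583528, plus strand: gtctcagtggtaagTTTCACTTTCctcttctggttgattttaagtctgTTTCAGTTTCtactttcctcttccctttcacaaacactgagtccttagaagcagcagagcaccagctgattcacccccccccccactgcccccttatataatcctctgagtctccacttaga
Isg15, chr4:156200819-156200988, minus strand: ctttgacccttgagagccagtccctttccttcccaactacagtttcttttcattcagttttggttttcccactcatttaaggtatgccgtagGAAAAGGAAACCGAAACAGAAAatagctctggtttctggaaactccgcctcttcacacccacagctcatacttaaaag
Xaf1, chr11:72301459-72301628, plus strand: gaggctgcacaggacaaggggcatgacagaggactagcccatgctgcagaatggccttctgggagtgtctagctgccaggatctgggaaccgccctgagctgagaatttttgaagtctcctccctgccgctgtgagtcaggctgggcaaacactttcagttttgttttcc
In Ifit1 the matches began 104 and 85 bases before the start, and in Ifit3 they began 156 and 122 bases before it. In both genes the letters of the upstream match were TTTCACTTTC and those of the downstream match TTTCAGTTTC. Xaf1 held no match in its window, which says only that these letters are absent there.

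The libraries held between 34718596.5 and 58163785 counts. The 9 genes together took 712 to 1529 counts of a library, so each value rests on few reads, from 15 (Usp18 in OVX 2) to 472 (Irf9 in OVX 2). Levels are given as CPM, the counts of a gene scaled to a library total of 1000000 over all features of the table. OVX+RJ 1 stood apart from the other 5 libraries, with a mean Pearson correlation with them of 0.983 across genes against 0.986 to 0.987 for the rest. Many of the results that it moves are given with and without it. Markers of the labelled tissue were present in each library: Prox1 of dentate granule cells measured 82.1 to 133 CPM and Fibcd1 of CA1 measured 154 to 174 CPM.

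Setting OVX+RJ against OVX addresses whether royal jelly in the diet alters hippocampal expression once the ovaries are gone. Ifit3 and Xaf1 stood higher in each OVX+RJ library than in each OVX library, by 1.43-fold and 1.45-fold in the fit. Usp18 stood 2.15-fold higher with overlapping groups. The other 6 genes overlapped between groups, with fitted ratios from 0.715 (Ifit1) to 1.21 (Irf9). None of the 9 had a Benjamini-Hochberg adjusted p under 0.05 by the edgeR quasi-likelihood test over all 18629 genes tested, of which 0% did, and the adjusted p of the 9 ran from 0.986 to 0.993. DESeq2 and limma-voom also called 0 of the 9.

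At an unadjusted p under 0.05 there were 3 of the 9, each higher in OVX+RJ (Ifit3, Xaf1 and Usp18), against 2.14% of all genes tested that were higher and 1.91% that were lower at that p. Without overlap between groups there were 2 of 9 on the higher side, against 4.53% of all genes, and 0 of 9 on the lower side, against 5.95%, or 10.5% of all genes on either side. The log2 fold change was positive at 6 of 9, against 49.6% of all genes, with a median of 0.11 beside -0.0015 over all genes. The genes were chosen with earlier results of these data known, so these counts describe the 9 and test nothing. Without OVX+RJ 2 the median was -0.048, with 4 of 9 positive, and without OVX+RJ 1 it was 0.31, with 7 of 9 positive. With 3 libraries a group, the smallest two-sided p of an exact permutation test is 0.1, so none is given for single genes.

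**Figure D1:**
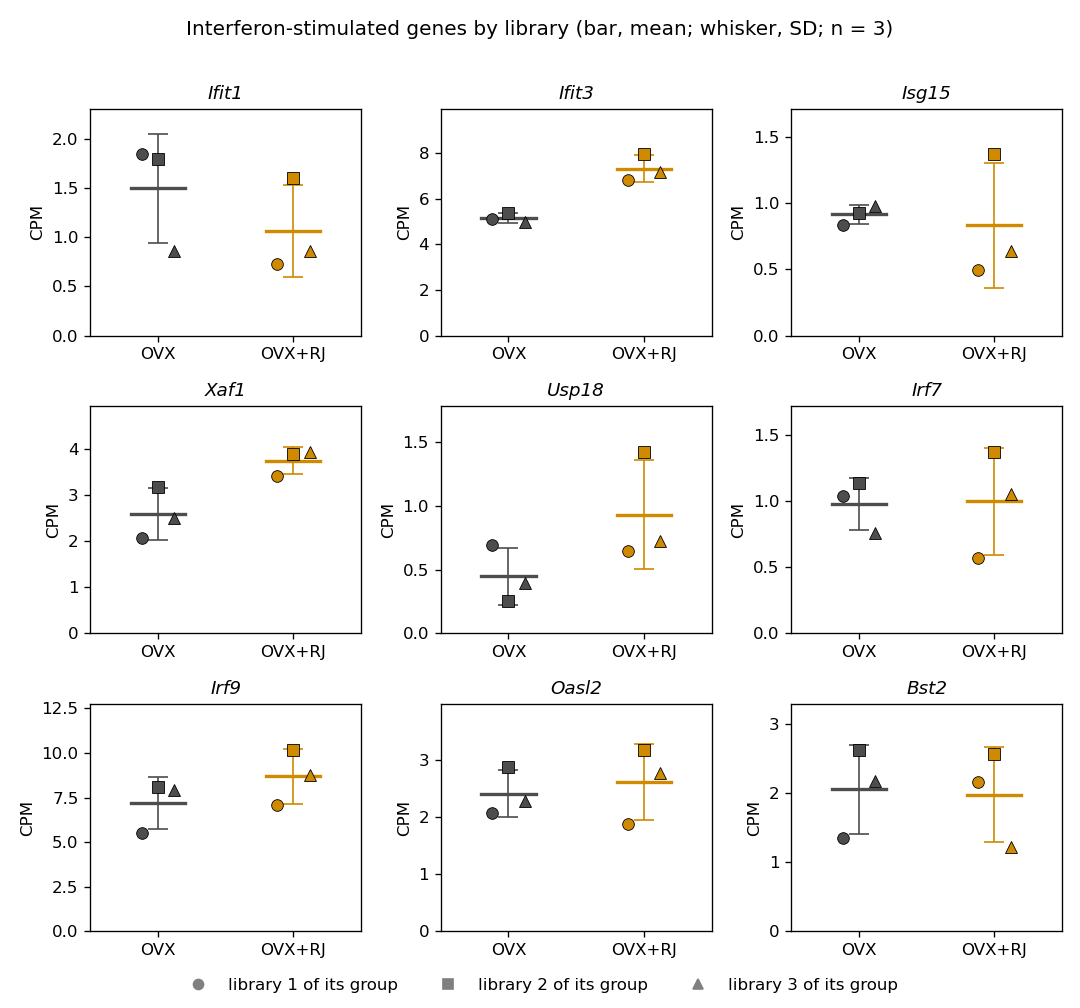
Level of each of the 9 genes in CPM (vertical axes, each from 0) in the 3 OVX and 3 OVX+RJ libraries, with 1 point a library, the mean as a bar and the SD as a whisker. The groups are apart for Ifit3 and Xaf1 and overlap for the other 7 genes.

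Ifit3 encodes an interferon-induced protein with tetratricopeptide repeats that assembles with other proteins of its family. In replicate order, as throughout, it measured 5.10, 5.38 and 4.96 CPM in the OVX libraries and 6.81, 7.95 and 7.15 CPM in the OVX+RJ libraries. The libraries of each group lay close together and the groups did not overlap. The means were 5.15 ± 0.216 CPM in OVX and 7.30 ± 0.587 CPM in OVX+RJ (SD, n = 3 each). The log2 fold change was 0.51, with a limma SE of 0.14 and a limma 95% interval of 0.20 to 0.82. Its unadjusted edgeR p of 0.00448 was the 48th lowest of 18629 genes, and its adjusted p was 0.986. With any 1 library left out the log2 fold change lay between 0.46 and 0.55.

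Ifit3 has a near-identical neighbour, Ifit3b, with which reads can be shared, so the split between them is uncertain. Ifit3b had a log2 fold change of 0.27 and overlapping groups. Summed, the pair measured 9.07, 9.82 and 8.15 CPM in the OVX libraries and 10.9, 13.2 and 11.7 CPM in the OVX+RJ libraries. The sum did not overlap between groups either, with a log2 fold change of 0.42 and an adjusted edgeR p of 0.986.

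Ifit1, whose product binds viral RNA caps, did not follow Ifit3. It measured 1.84, 1.79 and 0.859 CPM in the OVX libraries and 0.728, 1.60 and 0.859 CPM in the OVX+RJ libraries. OVX 1, OVX 2 and OVX+RJ 2 were high and the other 3 libraries low, so high and low values occurred in both groups. The log2 fold change was -0.48 (limma SE 0.38, interval -1.30 to 0.36), and without OVX+RJ 2 it was -0.90 and without OVX+RJ 1 -0.28. Counts of Ifit3 per count of Ifit1 were 2.77, 3.01 and 5.77 in the OVX libraries and 9.36, 4.97 and 8.32 in the OVX+RJ libraries, and OVX 3 lay above OVX+RJ 2.

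Xaf1 encodes a partner of the apoptosis inhibitor XIAP and is induced by interferon in many cells. It measured 2.07, 3.18 and 2.50 CPM in the OVX libraries and 3.40, 3.89 and 3.94 CPM in the OVX+RJ libraries. The lowest OVX+RJ library lay just above the highest OVX library. The means were 2.59 ± 0.558 and 3.74 ± 0.294 CPM, a log2 fold change of 0.53 (limma SE 0.21, interval 0.093 to 1.02). The unadjusted edgeR p was 0.0287, and 0.106 without OVX 1. Leaving out OVX 1 gave a log2 fold change of 0.40 and leaving out OVX 2 one of 0.72.

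Usp18 and Isg15 act on one system: Isg15 is a ubiquitin-like protein joined to other proteins, and Usp18 removes it and also damps the type I interferon receptor. Usp18 measured 0.691, 0.258 and 0.393 CPM in the OVX libraries and 0.650, 1.42 and 0.721 CPM in the OVX+RJ libraries. OVX+RJ 2 was the highest and OVX 2 the lowest, while OVX 1 lay above OVX+RJ 1. These rest on 24, 15 and 16 counts in the OVX libraries and on 25, 56 and 26 counts in those with royal jelly. The exact Poisson 95% interval, which covers counting error only, was 1.07 to 1.85 CPM in OVX+RJ 2 and 0.144 to 0.425 CPM in OVX 2. The log2 fold change was 1.10 (limma SE 0.44, interval 0.047 to 1.96), the widest error of the 9 genes, with an unadjusted edgeR p of 0.0389. Without OVX+RJ 2 it was 0.66, at an unadjusted p of 0.232, and without OVX 1 it was 1.53.

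Isg15 itself had means of 0.915 ± 0.0741 CPM in OVX and 0.834 ± 0.471 CPM in OVX+RJ. Its OVX libraries stood at 0.835, 0.928 and 0.982 CPM and its OVX+RJ libraries at 0.494, 1.37 and 0.637 CPM. The OVX values lay between those of OVX+RJ, of which 2 were below and 1 above every OVX library. The log2 fold change was -0.12 (limma SE 0.38, interval -1.08 to 0.60), -0.68 without OVX+RJ 2 and 0.14 without OVX+RJ 1.

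Irf9, the DNA-binding part of ISGF3, measured 5.50, 8.12 and 7.95 CPM in the OVX libraries and 7.09, 10.2 and 8.78 CPM in the OVX+RJ libraries. OVX 1 was the low library and OVX+RJ 2 the high one. The means were 7.19 ± 1.46 and 8.69 ± 1.55 CPM, a log2 fold change of 0.28 (limma SE 0.19, interval -0.12 to 0.70), 0.12 without OVX 1 and 0.39 without OVX+RJ 1. Irf7, which drives transcription of interferon genes after the first response, measured 1.04, 1.13 and 0.761 CPM in the OVX libraries and 0.572, 1.37 and 1.05 CPM in the OVX+RJ libraries. The OVX+RJ libraries held both the lowest and the highest value, and the log2 fold change was 0.034 (limma SE 0.36, interval -0.81 to 0.76), and 0.31 without OVX+RJ 1. In GENCODE M21, Irf9 overlaps Rnf31 on the same strand, Irf7 overlaps Phrf1 on the opposite strand and Usp18 overlaps Gm44148 on the opposite strand. How the counting treated strand is not stated in the labels, so counts of these 3 genes can include reads of the neighbour.

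Oasl2, an oligoadenylate synthetase-like antiviral protein, measured 2.07, 2.87 and 2.28 CPM in the OVX libraries and 1.87, 3.18 and 2.77 CPM in the OVX+RJ libraries. Its log2 fold change was 0.11 (limma SE 0.25, interval -0.44 to 0.64), -0.048 without OVX+RJ 2 and 0.30 without OVX+RJ 1. Bst2, or tetherin, which holds budding virus particles at the cell surface, measured 1.35, 2.63 and 2.18 CPM in the OVX libraries and 2.16, 2.57 and 1.22 CPM in the OVX+RJ libraries. Each group of Bst2 held 1 low library, OVX 1 and OVX+RJ 3. Its log2 fold change was -0.052 (limma SE 0.33, interval -0.78 to 0.67), and 0.20 without OVX+RJ 3.

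**Figure D2:**
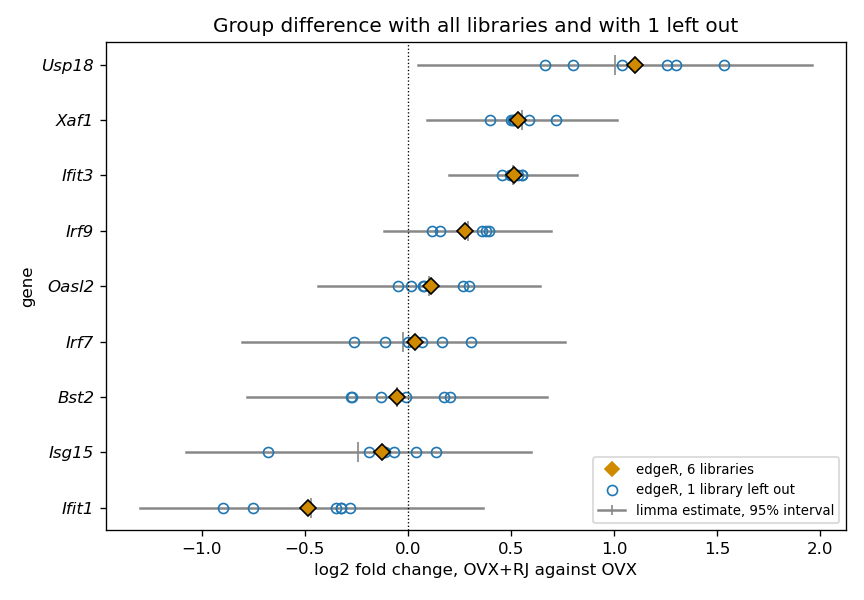
Log2 fold change of OVX+RJ against OVX (horizontal axis) for each gene (vertical axis), by edgeR with all 6 libraries (diamonds) and with 1 library left out (open circles), and limma's estimate with its 95% interval (grey). All circles of Usp18, Xaf1, Ifit3 and Irf9 lie above 0 and all of Ifit1 below it, while those of Oasl2, Irf7, Bst2 and Isg15 lie on both sides.

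Per kilobase of exon in GENCODE M21, Ifit3 had the highest level of the 9 genes and Usp18 or Irf7 the lowest. In OVX the mean CPM per kilobase was 2.95 for Ifit3, 2.28 for Bst2, 1.33 for Irf9, 1.21 for Isg15, 0.564 for Ifit1, 0.551 for Xaf1, 0.378 for Oasl2, 0.259 for Irf7 and 0.160 for Usp18. In OVX+RJ the order was the same from Ifit3 to Isg15, at 4.18, 2.19, 1.61 and 1.10, followed by Xaf1 at 0.798, Oasl2 at 0.409, Ifit1 at 0.400, Usp18 at 0.334 and Irf7 at 0.265. The lengths come from another annotation than the counts and are approximate.

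Across libraries the 9 genes were most often highest in OVX+RJ 2, at 6 of 9 (Ifit3, Isg15, Usp18, Irf7, Irf9 and Oasl2), against 16.0% of all genes tested. They were most often lowest in OVX+RJ 1, at 4 of 9 (Ifit1, Isg15, Irf7 and Oasl2), against 28.9% of all genes tested, the library that stood apart. The mean deviation of the 9 genes from their own means, on the log2 CPM scale, was -0.14, 0.045 and -0.18 in the OVX libraries and -0.20, 0.50 and -0.028 in the OVX+RJ libraries. The deviations of the groups overlapped, and OVX+RJ held both the highest and the lowest library. Only in OVX+RJ 2 were all 9 genes above their means. The spread within OVX+RJ, as a coefficient of variation, was 56.5% for Isg15, 45.9% for Usp18, 44.3% for Ifit1 and 40.3% for Irf7, and 8.03% for Ifit3 and 7.85% for Xaf1. For Isg15 the spread in OVX was 8.10%, below the 13.6% that counting error alone gives at its deepest library.

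**Figure D3:**
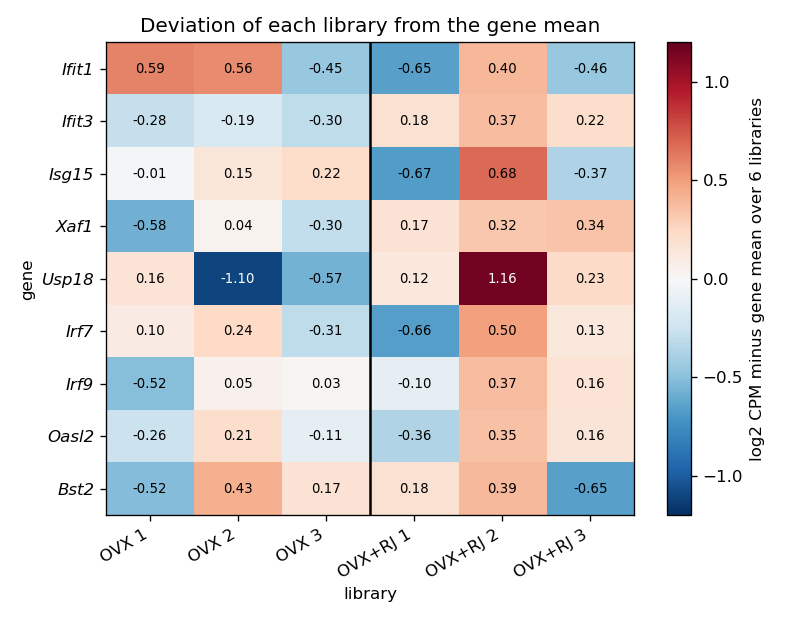
Log2 CPM of each gene (rows) in each library (columns), minus the gene's mean over the 6 libraries, with OVX left and OVX+RJ right of the black line. Red is above and blue below the mean, and OVX+RJ 2 is the 1 column with all 9 genes above 0.

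Of the genes upstream of this response, interferons themselves were hardly counted. Of 21 interferon genes listed, 3 had a row, and Ifng had 2 counts and Ifne 1 count in all, both in OVX 3, and Ifnz 1 count in each of 3 libraries. Receptors were expressed, with Ifnar1 at 36.0, 35.1 and 34.2 CPM in OVX and 34.9, 40.5 and 38.7 CPM in OVX+RJ. Its log2 fold change was 0.13 and that of Ifnar2 -0.00081, and the lowest of the 5 receptor genes tested was Ifngr2 at -0.065, with 0 called. Of 12 genes of JAK-STAT and IRF signalling 0 were called. Of the log2 fold changes 4 were above and 8 below 0, from -0.37 for Socs1, an inhibitor of Jak kinases, to 0.26 for Irf8. Stat2, a part of ISGF3, was at -0.10 and Irf3, which acts upstream of interferon genes, at -0.22, both with overlapping groups, and the median of the list was -0.10 beside -0.0015 over all genes. Without OVX+RJ 1 that median was -0.025 and the values of Stat2 and Irf3 were both -0.029, and all 5 receptor genes lay above 0. Without OVX+RJ 2 the median of the signalling list was -0.17, and 1 receptor gene lay above and 4 below 0.

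Nucleic acid sensors and their adaptors gave 0 calls among 14 tested, with 6 positive and 8 negative. The ends of the range were the kinase Ikbke at 0.64 and the adaptor Mavs at -0.20, and the RNA sensor Ifih1 was at -0.11. The enzymes that join Isg15 to proteins gave 0 calls among 4, from -0.15 for the activating enzyme Uba7 to 0.12 for the ligase Herc6. In the receptor, signalling, sensor and conjugation lists 0 genes had an unadjusted edgeR p under 0.05. Without OVX+RJ 1 there was 1 in each of the first 3 of these lists, each higher: Ifnar1 at 0.18, the kinase Jak2 at 0.18 and Ikbke at 0.83. At that setting 4.47% of all genes were under that p, and the sensor list had 9 positive and 5 negative. Without OVX+RJ 2 there was 1 lower gene in the signalling list and 0 in the receptor, sensor and conjugation lists, against 5.83% of all genes. The sensor list then had 6 positive and 8 negative.

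A further list of 55 interferon-stimulated genes had 40 tested members. Of these 0 were called, 23 lay above and 17 below 0 on the log2 fold change scale at a median of 0.057, and 0 had an unadjusted p under 0.05, against 4.05% of all genes. Without OVX+RJ 1 the median was 0.048. It was -0.027 without OVX+RJ 2, with 18 positive and 22 negative. Leaving out OVX 3 gave -0.010, with 19 positive and 21 negative. With all 6 libraries the range ran from -0.50 for Phf11d to 0.57 for Oas1c. Ifit2, of the same gene cluster as Ifit1 and Ifit3, measured 9.16, 9.56 and 9.03 CPM in the OVX libraries and 7.59, 11.8 and 9.92 CPM in the OVX+RJ libraries, a log2 fold change of 0.086. As for several of the 9 genes, OVX+RJ held its lowest and its highest library, and without OVX+RJ 1 the log2 fold change was 0.23. Ifi27 was at 0.073, Ifitm3, which blocks viral entry, at 0.015, and Rsad2, the antiviral enzyme viperin, at -0.26. Mx1, an antiviral GTPase, had 2, 2 and 0 counts in the OVX libraries and 9, 4 and 4 with royal jelly, and the chemokine gene Cxcl10 had 16, 10 and 9 against 13, 10 and 4, both too few to be tested.

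The guanylate-binding proteins and immunity-related GTPases, known best as targets of interferon gamma, had 14 tested members, with 0 called, 5 positive and 9 negative and a median of -0.23. The lower median depended on single libraries of both groups. Without OVX+RJ 1 there were 6 positive and 8 negative and the median was -0.0081, beside -0.0019 over all genes. Without OVX 2 there were 8 positive and 6 negative and the median was 0.060. Leaving out any other library gave a median between -0.38 and -0.12. Tgtp2 was at the lower end, at 0.691, 1.99 and 0.834 CPM in OVX and 0.312, 0.787 and 0.527 CPM in OVX+RJ, a log2 fold change of -1.13 with an unadjusted edgeR p of 0.038 and an adjusted p of 0.986. It was the only one of the 14 at an unadjusted p under 0.05, and it has a near-identical copy, Tgtp1, at -0.26, so its counts are uncertain. Without OVX+RJ 1 the value of Tgtp2 was -0.86, no longer at an unadjusted p under 0.05, and that of Tgtp1 was 0.087. Gbp6 was at the upper end at 0.37, and Igtp was at 0.26. DESeq2 and limma-voom also called 0 genes in each of these pathway lists.

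**Figure D4:**
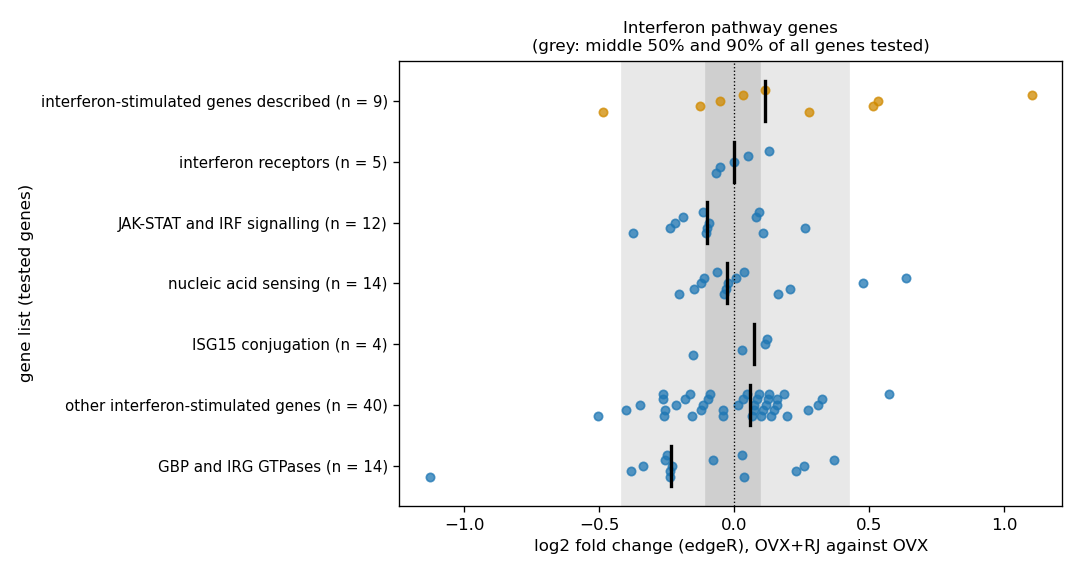
Log2 fold change of OVX+RJ against OVX by edgeR (horizontal axis) for every tested gene of each list (rows), with the list's median as a black bar and the middle 50% and 90% of all genes tested as grey bands. Usp18, Ifit3 and Xaf1 lie to the right and Ifit1 to the left of the wider band, which runs from -0.41 to 0.43.

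In bulk tissue a change in the number of cells of a type and a change in RNA per cell cannot be told apart, so markers of the cell types that can carry the response stand here beside the 9 genes. The 14 microglia markers, such as P2ry12 and Tmem119, summed to 430 to 452 CPM in OVX and 413 to 441 CPM in OVX+RJ, with 0 called. Of these 5 were positive and 9 negative, and 2 were lower in OVX+RJ without overlap, against 5.95% of all genes. The 14 endothelial markers, such as Cldn5 and Pecam1, summed to 328 to 341 CPM in OVX and to 276 to 311 CPM in OVX+RJ, with 0 called. Of these 4 were positive and 10 negative, where 49.6% of all genes were positive. At an unadjusted edgeR p under 0.05 there were 3, each lower (Ly6c1, Slc2a1 and Ly6a), against 1.91% of all genes. Cldn5 and Pecam1 were not among them. Slc2a1 had means of 75.6 CPM in OVX and 58.7 CPM in OVX+RJ and so took a large part in the sums. Without overlap between groups there were 4, each lower, against 5.95%. The endothelial sums did not overlap between groups and lay on the lower side in OVX+RJ. The median log2 fold change of these markers was -0.15. Without OVX+RJ 3 it was -0.059, with 6 positive and 8 negative. Leaving out any other library gave a median between -0.16 and -0.12. Log2 fold changes of single markers ran from -0.43 for Ly6c1 to 0.22 for Kdr. The 8 astrocyte markers summed to 4505 to 4921 CPM in OVX and 4594 to 4843 CPM in OVX+RJ, with 3 positive, 5 negative and 0 called. Most of that sum was Slc1a2, at means of 3186 and 3209 CPM. The 11 hippocampal neuron markers summed to 6036 to 6327 CPM in OVX and 6234 to 6559 CPM in OVX+RJ, with 7 positive, 4 negative and 0 called. Of these 2 were higher in OVX+RJ without overlap, against 4.53% of all genes. The part of these cell types in the 9 genes was not tested.

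Some markers of choroid plexus, a tissue at the edge of the dissection, also differed in level between libraries. The 9 choroid plexus markers summed to 31.7, 42.3 and 36.8 CPM in OVX and to 30.6, 52.2 and 59.9 CPM in OVX+RJ, highest in OVX+RJ 3 and OVX+RJ 2. Of 7 tested, 5 were positive and 2 negative, and 0 were called. Ttr at 1.32 and Clic6 at 1.61 were the 2 at an unadjusted edgeR p under 0.05, against 2.14% of all genes that were higher at that p. The other 5 had log2 fold changes of 1.29 for Otx2, 0.00060 for Kl, 0.14 for Folr1, -0.074 for Prlr and -0.10 for Sostdc1. The groups overlapped for each of the 7, and the untested Kcnj13 and Aqp1 were at most 0.294 CPM in any library. Without OVX+RJ 1 all 7 were positive, and 3 of them (Ttr, Clic6 and Otx2) had an unadjusted edgeR p under 0.05. At that setting 4.47% of all genes were under that p. Leaving out any other library gave 4 or 5 positive. Ifit3, Xaf1, Usp18 and Irf9 also had their highest values in OVX+RJ 2 and OVX+RJ 3, and the rest of the 9 genes did not. OVX+RJ 1 had the lowest choroid plexus sum of all libraries. There Ifit3 at 6.81 CPM and Xaf1 at 3.40 CPM still lay above each OVX library. Usp18 at 0.650 CPM and Irf9 at 7.09 CPM did not. The part of choroid plexus in the 9 genes was not tested. Of 9 markers of blood leukocytes 5 had a row, none was tested, and their sum was at most 0.364 CPM in any library. Cd3e of T cells, Ms4a1 of B cells and Nkg7 of cytotoxic cells were at 0 in 4 of 6 libraries each. Cd79a of B cells had 0 counts in each OVX library and 6, 3 and 3 in the OVX+RJ libraries, and S100a9 of neutrophils had 0 in each OVX library and 6, 0 and 2 in the OVX+RJ libraries. The part of blood cells in the 9 genes was not tested.

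The 5 genes whose log2 CPM most resembled the mean pattern of the 9 over the 6 libraries were Pold1, Hps5, Odad4, Rgs19 and Fuom, with Pearson r from 0.954 to 0.993, given as a description over 14701 genes ranked. Each of the 5 was highest in OVX+RJ 2 and lowest in OVX+RJ 1. The mean pattern has the same highest and lowest library, so genes picked for likeness to it tend to share them. None of the 5 was on the interferon lists. Pold1, the catalytic subunit of DNA polymerase delta, measured 4.35, 4.62 and 4.25 CPM in the OVX libraries and 4.16, 5.18 and 4.43 CPM in the OVX+RJ libraries. Among the 100 genes most like the pattern there was 1 from the interferon lists, Ifit2, or 1%, beside 0.605% of all genes ranked.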

How the data were processed

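The members and gene lists were chosen with earlier results of these data known. The deposited table holds expected counts per gene symbol, unscaled between libraries. The build GRCm39 and the tools StringTie 2.2.1, HISAT2 2.2.1, fastp 0.23.4 and bcl2fastq 2.19 are named, without roles, in the submitters' processing notes. For the counter, annotation release and strand setting nothing is given in the sources used here. Per the labels' protocols, libraries came from poly(A) RNA with a directional kit.

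Counts were rounded, and CPM was taken over the total of all rows. In R 4.3.3, edgeR 4.0.16 kept 18629 genes by filterByExpr, scaled by TMM and compared groups by the quasi-likelihood test, with Benjamini-Hochberg adjustment at 0.05. Standard errors and 95% intervals are from limma 3.58.1 on log2 CPM (prior count 2). They belong to limma's own estimates, which differ from the edgeR log2 fold changes given beside them. The limma estimates were -0.24 for Isg15, -0.023 for Irf7 and 1.00 for Usp18. The test was checked on simulated counts, where it called 55.9% of genes changed 1.5-fold and 75.2% of those changed 2-fold. Of 90484 unchanged genes 37 were called. These shares are not split by count, so they do not give the share at the low counts of the 9 genes. DESeq2 1.42.0, limma-voom, other scalings and filters, a replicate block, robust empirical Bayes and each library left out were alternatives. Genes were named by rule: the 9 genes, the ends of each list's range, 16 pathway genes fixed by name (1 is not reported here), and the 5 most like genes. Tgtp1, Jak2, the cell type markers given singly and the 3 interferon genes with a row were named after their values were seen. Promoters are from RefSeq on GRCm38.p6, and lengths and overlaps from GENCODE M21.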

Additional observations from a re-analysis of the deposited data

How the results depend on the processing

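None of the 9 genes was called at an adjusted p of 0.05 by edgeR or under any of the 14 alternatives fixed at the start, where the lowest adjusted p was 0.610 for Ifit3 by DESeq2. Over all genes, edgeR called 0, with 754 at an unadjusted p under 0.05, DESeq2 called 13 (10 higher, 3 lower), robust empirical Bayes called 3, the replicate block called 1 and limma-voom called 0. With 1 library left out edgeR called between 0 and 8 genes. Same-numbered libraries deviated together hardly at all (correlations of 0.046, -0.0024 and 0.0031 across genes), OVX 2 deviated most like OVX+RJ 3, and the replicate block left the median of the 9 genes at 0.11 and 0 of them called.

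Leaving out 1 library moved the median log2 fold change of the 9 genes between -0.048 and 0.31. Single genes changed sign as follows. Irf7 was at -0.039 by limma-voom and between -0.26 and 0.31 with 1 library left out, Isg15 between -0.68 and 0.14, Oasl2 between -0.048 and 0.30, and Bst2 between -0.27 and 0.20. The unadjusted p of Ifit3 stayed under 0.05 in all 14 alternatives, that of Xaf1 in 10 of 14, and that of Usp18 in 9 of 13. Many of these alternatives kept all 6 libraries. With 1 library left out the unadjusted edgeR p of Ifit3 ran from 0.00364 to 0.0210. That of Xaf1 ran from 0.0113 to 0.106, above 0.05 without OVX 1, OVX 3, OVX+RJ 2 or OVX+RJ 3. That of Usp18 ran from 0.0148 to 0.232, above 0.05 without OVX 2, OVX 3 or OVX+RJ 2. Usp18, Irf7 and Isg15 fell under the filter of a mean of 50 counts, which left 6 genes with a median of 0.20. The sum of Ifit3 and Ifit3b, and the gene lists without 1 library, were alternatives chosen after seeing the data. Counts of 15 to 66 per library limit Usp18, Isg15 and Irf7.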
